A study of Mus musculus with 4 samples.

Results

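The 10 genes described here make the MHC class I molecule and load it. H2-K1 and H2-D1 encode the classical heavy chains, and H2-Q4, H2-Q6, H2-Q7, H2-T22 and H2-T23 are heavy-chain genes of the Qa and Tla regions. B2m encodes beta-2 microglobulin, the light chain, while Tap1 and Tapbp encode a subunit of the peptide transporter and the loading chaperone tapasin. They were taken by symbol, without any threshold on their values, and all 10 of 10 were found among the 27998 genes of the deposited matrices. The cells came from malignant pleural effusions that Lewis lung carcinoma (LLC, a mouse lung carcinoma line) had raised in C57BL/6 mice. On day 11 the mice received, into the pleural cavity, 1 µg of LNP-cGAMP (a cyclic dinucleotide in nanoparticles, which the design text also calls LNP-CDN), 30 µg of the anti-PD-L1 antibody 10F.9G2, both agents together (the combination), or phosphate-buffered saline (PBS). On day 13, 48 h after the injection, cells of the pleural fluid were taken, freed of red cells, pooled from 3 mice per treatment and sequenced as 1 droplet library per treatment. Age and sex are not given in the labels. Each treatment is therefore 1 sample, no difference below has a test, and every interval covers the counting of molecules only.

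In textbook outline, peptides cut by the proteasome are pumped into the endoplasmic reticulum by the TAP transporter, and tapasin holds the empty class I molecule at TAP until a peptide binds. The heavy chain paired with beta-2 microglobulin then travels to the cell surface, where CD8 T cells read the peptide. Classical heavy chains are found on nearly all nucleated cells, whereas Qa and Tla molecules are less variable and several are read by natural killer cells or unconventional T cells: H2-T23 encodes Qa-1, the ligand of the CD94/NKG2A receptor, and the Q6 to Q9 genes encode Qa-2. cGAMP is the natural ligand of STING, a sensor pathway that leads to type I interferon, and class I genes are known targets of interferon.

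Each gene's position was taken from GRCm38, the assembly that mm10 names. B2m lies on chromosome 2 at chr2:122147686-122153083, on the plus strand. The other 9 lie on chromosome 17, in the H2 complex. Tapbp spans chr17:33915899-33929292, H2-K1 chr17:33996017-34000347 on the minus strand and Tap1 chr17:34187553-34197225. H2-D1 spans chr17:35262730-35267499, followed by H2-Q4 at chr17:35379617-35385290, H2-Q6 at chr17:35424850-35430055 and H2-Q7 at chr17:35439155-35443773. H2-T23 at chr17:36029773-36032855 and H2-T22 at chr17:36037128-36042747 lie on the minus strand. All 10 are annotated as protein coding.

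The promoters are shown because 5 heavy-chain genes of the H2-K, H2-D and H2-Q regions share short motifs in them that the other members lack in part. The RefSeq table (GRCm38.p6) held a start for all 10 genes, and the 250 bases before each start were searched on both strands. Sites found are in capitals, and the stretches run 5′ to 3′ on the gene's own strand, from 5 bases before the first site to 5 bases after the last one. The searched letters were GGGATTCCC or GGGATTTCC (enhancer A, a binding motif of NF-kB), GAANNGAAA or GAAANNGAA (an interferon element), TGACGC (a CRE-like box) and CCAAT (the Y box, ATTGG on the other strand). The second form of the first pair of motifs was added after the windows had been seen. RefSeq lists 2 starts for H2-K1, and the stretch is given for the first one. No site overlapped another in the stretches printed.
H2-K1, chr17:34000354-34000462: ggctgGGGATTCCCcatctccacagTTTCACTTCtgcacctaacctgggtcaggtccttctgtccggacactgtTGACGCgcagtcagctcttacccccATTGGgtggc
H2-D1, chr17:35262919-35263050: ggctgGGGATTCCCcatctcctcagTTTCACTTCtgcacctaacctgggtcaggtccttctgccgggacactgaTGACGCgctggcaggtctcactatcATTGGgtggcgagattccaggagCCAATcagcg
H2-Q4, chr17:35379439-35379571: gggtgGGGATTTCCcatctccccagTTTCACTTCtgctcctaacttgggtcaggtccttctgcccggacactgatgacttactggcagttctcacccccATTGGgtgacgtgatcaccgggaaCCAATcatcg
H2-Q6, chr17:35424673-35424804: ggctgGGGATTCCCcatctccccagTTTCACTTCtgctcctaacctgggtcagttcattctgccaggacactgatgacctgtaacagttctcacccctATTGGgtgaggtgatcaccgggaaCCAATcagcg
H2-Q7, chr17:35439018-35439148: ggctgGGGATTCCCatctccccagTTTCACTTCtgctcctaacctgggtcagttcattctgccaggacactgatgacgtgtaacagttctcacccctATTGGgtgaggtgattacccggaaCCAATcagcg
H2-T22, chr17:36042796-36042948: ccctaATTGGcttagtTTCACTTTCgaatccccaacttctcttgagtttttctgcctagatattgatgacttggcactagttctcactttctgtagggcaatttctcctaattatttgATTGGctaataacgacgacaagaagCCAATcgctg
H2-T23, chr17:36032744-36032829: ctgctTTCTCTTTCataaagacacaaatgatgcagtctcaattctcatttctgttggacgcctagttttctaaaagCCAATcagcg
B2m, chr2:122147543-122147643: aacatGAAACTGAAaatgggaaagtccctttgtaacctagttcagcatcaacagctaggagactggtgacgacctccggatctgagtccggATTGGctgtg

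The enhancer A letters were in the windows of H2-K1, H2-D1, H2-Q4, H2-Q6 and H2-Q7, and in 0.584% of 32851 RefSeq promoters of this length. In these 5 windows TTTCACTTC, the interferon element read on the other strand, followed it closely. H2-T22 held TTCACTTTC, H2-T23 TTCTCTTTC and B2m GAAACTGAA, and 12.5% of all promoters held one of the interferon forms. TGACGC was in the H2-K1 and H2-D1 windows and in 6.12% of all promoters. CCAAT was in all 10 windows and in 33.8% of all promoters, and it was the only motif of the 4 found in the Tap1 and Tapbp windows. These matches describe letters, not binding.

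The 4 libraries held between 68828158 and 88855120 UMIs (unique molecular identifiers, 1 per RNA molecule captured). Cells were sorted into 7 classes by marker genes that include no member of the set, and each class was summed per library and scaled to UMIs per 1000000 (CPM). Because each molecule is tagged once at its 3′ end, CPM is not scaled by gene length. The kept cells numbered 3839 for LNP-cGAMP, 3392 for anti-PD-L1, 3522 for the combination and 2837 for PBS. Each pair of libraries shared 15 to 20 cell barcodes. Sex-linked transcripts set libraries apart: of the cells whose sex could be called, 99.8% were male in LNP-cGAMP, 31.9% in anti-PD-L1, 21.5% in the combination and 99.1% in PBS. Male-called cells were therefore also summed alone. A second limit is that near-identical 3′ ends can split or lose reads between these genes. Of the 50-base words in the last 600 bases of their transcripts, H2-T22 shared 47.8% with another gene (H2-T10), H2-T23 44.8%, H2-Q6 41.4% (mostly with H2-Q7, H2-Q4 and H2-D1), H2-Q4 28.3% and H2-Q7 21.1%. H2-K1 and H2-D1 shared 8.09% and 7.98%, so the single-gene values of the Qa and Tla genes are less certain than theirs.

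Every class expressed class I, and the order of the classes differed between libraries. Summed over the 7 heavy chains, LLC cells had the lowest level in each library, from 2039 CPM in PBS to 6016 CPM in the combination. T cells ranged over the 4 libraries between 6068 and 7609 CPM and natural killer (NK) cells between 7660 and 8580 CPM, while monocytes and macrophages ranged between 5802 and 12627 CPM and neutrophils between 7182 and 12623 CPM. T and NK cells thus varied less between libraries than the myeloid classes. H2-Q7 also differed between the classes, and lay between 687 and 1015 CPM in NK cells and between 519 and 975 CPM in T cells, against 60.7 to 512 CPM in monocytes and macrophages and 42.2 to 444 CPM in neutrophils. H2-D1 was instead highest in neutrophils in each library, with 4330 to 6492 CPM. Monocytes and macrophages had 3186 to 5557 CPM, against 2685 to 3362 CPM in NK cells and 2175 to 2614 CPM in T cells. In PBS, NK cells (3362 CPM) lay above monocytes and macrophages (3186 CPM). Tap1 was highest in dendritic cells (510 to 599 CPM) and neutrophils (520 to 583 CPM), and these 2 ranges overlap. B cells and dendritic cells numbered between 12 and 52 per library, so their levels rest on few cells.

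**Figure D1:**
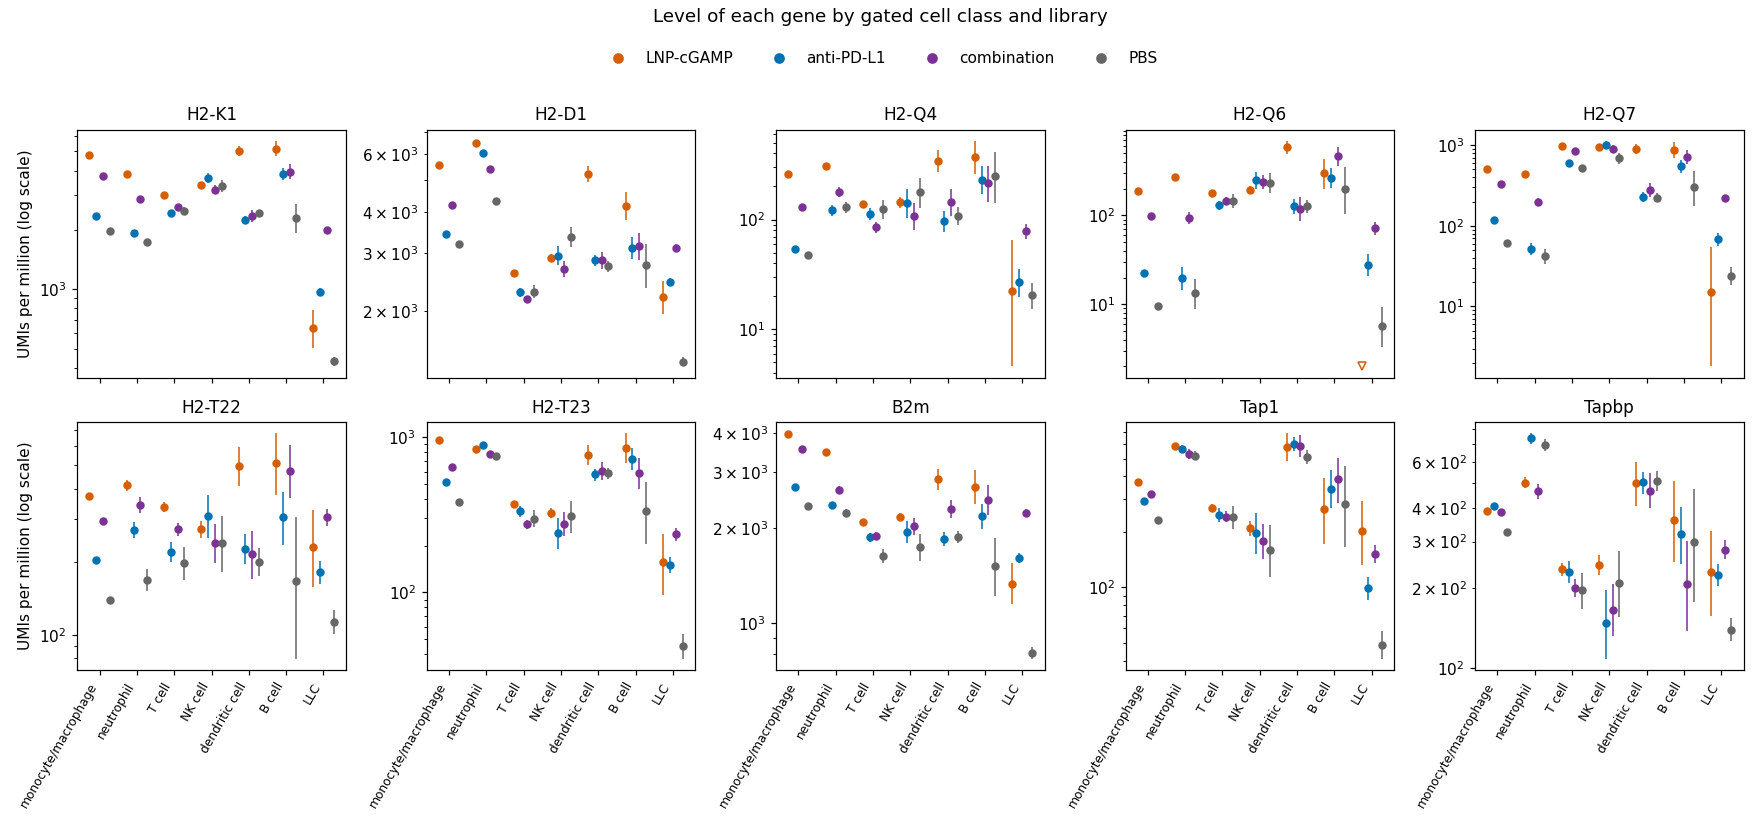
CPM of each of the 10 genes (log axis) in each cell class, with 1 point per library in the order LNP-cGAMP, anti-PD-L1, combination and PBS. H2-Q6 and H2-Q7 in monocytes, macrophages and neutrophils spread far between libraries (60.7 to 512 CPM for H2-Q7 in monocytes and macrophages). The T and NK cell points spread less (519 to 975 CPM for H2-Q7 in T cells). An open triangle marks H2-Q6 at 0 UMIs in the 4 LNP-cGAMP LLC cells.

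In monocytes and macrophages the LNP-cGAMP library was higher than the PBS library for 9 of the 10 genes by at least 1.5-fold, and lower for 0. Over all 3270 genes tested in this class, 11.5% were as much higher and 8.23% as much lower. Among the classical genes, H2-K1 had 4781 CPM in LNP-cGAMP, 2344 CPM in anti-PD-L1, 3743 CPM in the combination and 1976 CPM in PBS. H2-D1 had 5557 CPM, 3421 CPM, 4190 CPM and 3186 CPM in the same 4 libraries. Both classical genes were thus highest in LNP-cGAMP, with the combination next, and H2-K1 differed more. LNP-cGAMP exceeded PBS 2.42-fold for H2-K1 (95% counting interval 2.40 to 2.44) and 1.74-fold for H2-D1 (1.73 to 1.75).

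The Qa genes differed most. H2-Q6 had 191 CPM in LNP-cGAMP, 22.4 CPM in anti-PD-L1, 98.8 CPM in the combination and 9.57 CPM in PBS, so that LNP-cGAMP exceeded PBS 19.9-fold (18.3 to 21.7). H2-Q7 had 512 CPM in LNP-cGAMP, 118 CPM in anti-PD-L1, 335 CPM in the combination and 60.7 CPM in PBS, an 8.43-fold excess (8.14 to 8.73). H2-Q4, whose product Qb-1 is secreted, had 262 CPM, 53.9 CPM, 131 CPM and 47.7 CPM in the same order, a 5.49-fold excess (5.27 to 5.72). These 3 genes had the same order of libraries as the classical pair. H2-Q6 and H2-Q4 were under 50 CPM in PBS and entered the set of tested genes only through the treated libraries, so that their difference is in part a condition of entry. In the Tla region, H2-T22 had 373 CPM in LNP-cGAMP against 139 CPM in PBS (2.68-fold) and H2-T23 had 952 against 382 CPM (2.49-fold). All 5 Qa and Tla genes lay above both classical genes in this comparison, with a median log2 ratio of 2.24 against 1.04 for the classical pair and 0.06 for all genes tested. With a pseudocount of 50 in place of 10 CPM, 3 of the 5 did. H2-T23 lay only slightly above H2-K1. In the narrower marker gates described below, all 5 did so in Vcan- and in Lyve1+ macrophages. In Vcan+ Ccr2+ monocytes and in Cd163+ Lyve1- macrophages, 3 of the 5 lay above both classical genes.

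The partners of the heavy chains differed less. B2m had 3978 CPM in LNP-cGAMP, 2695 CPM in anti-PD-L1, 3568 CPM in the combination and 2348 CPM in PBS, and LNP-cGAMP exceeded PBS 1.69-fold (1.68 to 1.71). B2m molecules per heavy-chain molecule were 0.315 in LNP-cGAMP, 0.404 in anti-PD-L1, 0.378 in the combination and 0.405 in PBS, so the light chain did not keep pace with the summed heavy chains. Tap1 had 372 CPM against 232 CPM in PBS (1.60-fold), and Tapbp, at 392 against 325 CPM (1.21-fold), was the 1 member below 1.5-fold. The makeup of the heavy chains shifted with their sum: Qa and Tla genes gave 18.1% of heavy-chain molecules in LNP-cGAMP (exact 95% binomial interval 18.03 to 18.22), 13.6% in anti-PD-L1, 15.9% in the combination and 11.0% in PBS.

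**Figure D2:**
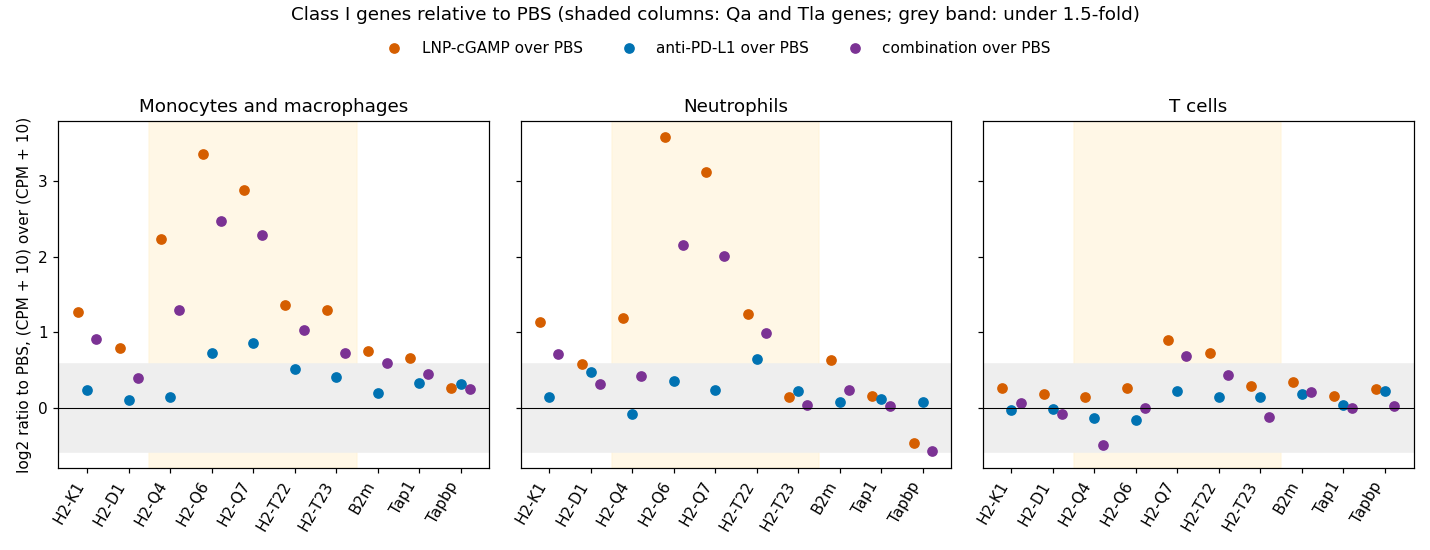
Log2 ratio of (CPM + 10) in LNP-cGAMP, anti-PD-L1 and the combination over PBS for each of the 10 genes in monocytes and macrophages, neutrophils and T cells. The grey band marks ratios under 1.5-fold. H2-Q6 and H2-Q7 lie farthest to the higher side in both myeloid classes under LNP-cGAMP and the combination, and most T cell points lie within 1.5-fold.

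The monocytes and macrophages of the libraries fell into different clusters, and the values above compare those clusters too. Most LNP-cGAMP cells of the class lay in clusters 0, 6, 9 and 13 (led by Ccl12 and Ccl8, by Saa3, again by Saa3, and by Fabp5). Most PBS cells lay in clusters 2, 3, 4, 7 and 10 (led by Cd163, Lyve1, Chil3 with Vcan, Cxcl9 with H2-Aa, and Top2a). Cluster 4 was shared: counted over all classes, it held 196 LNP-cGAMP and 236 PBS cells. H2-Q6 itself is among the leading genes of cluster 0. The differences were therefore measured again within gates on single markers. In Vcan+ Ccr2+ monocytes (592 LNP-cGAMP and 366 PBS cells), H2-K1 had 4163 CPM in LNP-cGAMP, 2020 CPM in anti-PD-L1, 3528 CPM in the combination and 1665 CPM in PBS. H2-Q7 in these monocytes had 459 CPM in LNP-cGAMP, 70.2 CPM in anti-PD-L1, 332 CPM in the combination and 42.2 CPM in PBS. The excess of LNP-cGAMP over PBS was 2.50-fold (2.45 to 2.55) and 10.9-fold (9.61 to 12.3) at similar depth (median 18866 and 15733 UMIs per cell). The gate did not put the same clusters side by side: of its cells, 139 in LNP-cGAMP and 201 in PBS lay in cluster 4, while 304 and 131 LNP-cGAMP cells lay in clusters 6 and 0, where PBS had 0, and 143 PBS cells lay in cluster 7, where LNP-cGAMP had 8. Gated cells of cluster 4, a subset added after seeing the data, had 146 CPM of H2-Q7 in LNP-cGAMP, 44.9 CPM in anti-PD-L1 (375 cells), 135 CPM in the combination (207 cells) and 23.9 CPM in PBS. Their H2-K1 levels were 2529, 1725, 2508 and 1361 CPM in the same order. Within this 1 cluster LNP-cGAMP and the combination thus lay close together, and both were above PBS by less than over the whole gate. Among male-called cells of the gate, anti-PD-L1 lay below PBS, with 1467 against 1674 CPM of H2-K1 and 23.9 against 43.8 CPM of H2-Q7.

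The same order held in macrophages that keep resident markers. In Lyve1+ macrophages, which were 105 cells in LNP-cGAMP, H2-K1 had 4752 CPM in LNP-cGAMP, 2256 CPM in anti-PD-L1, 2859 CPM in the combination and 1931 CPM in PBS, and H2-Q7 had 351, 101, 174 and 48.8 CPM. In Cd163+ Lyve1- macrophages H2-Q7 had 403, 76.2, 362 and 38.3 CPM in the same order of libraries. The combination thus lay near LNP-cGAMP in Cd163+ cells and nearer to anti-PD-L1 in Lyve1+ cells. Male-called Lyve1+ cells did not show the second of these: H2-K1 had 4773 CPM in LNP-cGAMP, 2078 CPM in anti-PD-L1 and 4212 CPM in the combination (65 cells), and H2-Q7 had 357, 62.3 and 268 CPM. These gates too compare different clusters, because 98 of the 105 Lyve1+ cells of LNP-cGAMP lay in clusters 9 and 13, which held 3 and 0 of the PBS cells in the gate, and 0 LNP-cGAMP cells of either gate lay in clusters 2 or 3, which held most PBS cells. Of the 10 genes, LNP-cGAMP was at least 1.5-fold higher than PBS for 8 in Vcan+ Ccr2+ monocytes (8.99% of all genes tested there), 9 in Vcan- macrophages (12.6%), 8 in Lyve1+ macrophages (12.3%) and 8 in Cd163+ macrophages (11.5%). Alox15+ Prg4+ macrophages stood apart, because their H2-Q7 level was high without LNP-cGAMP: 431 CPM in LNP-cGAMP (19 cells), 367 CPM in anti-PD-L1, 386 CPM in the combination and 169 CPM in PBS (27 cells).

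**Figure D3:**
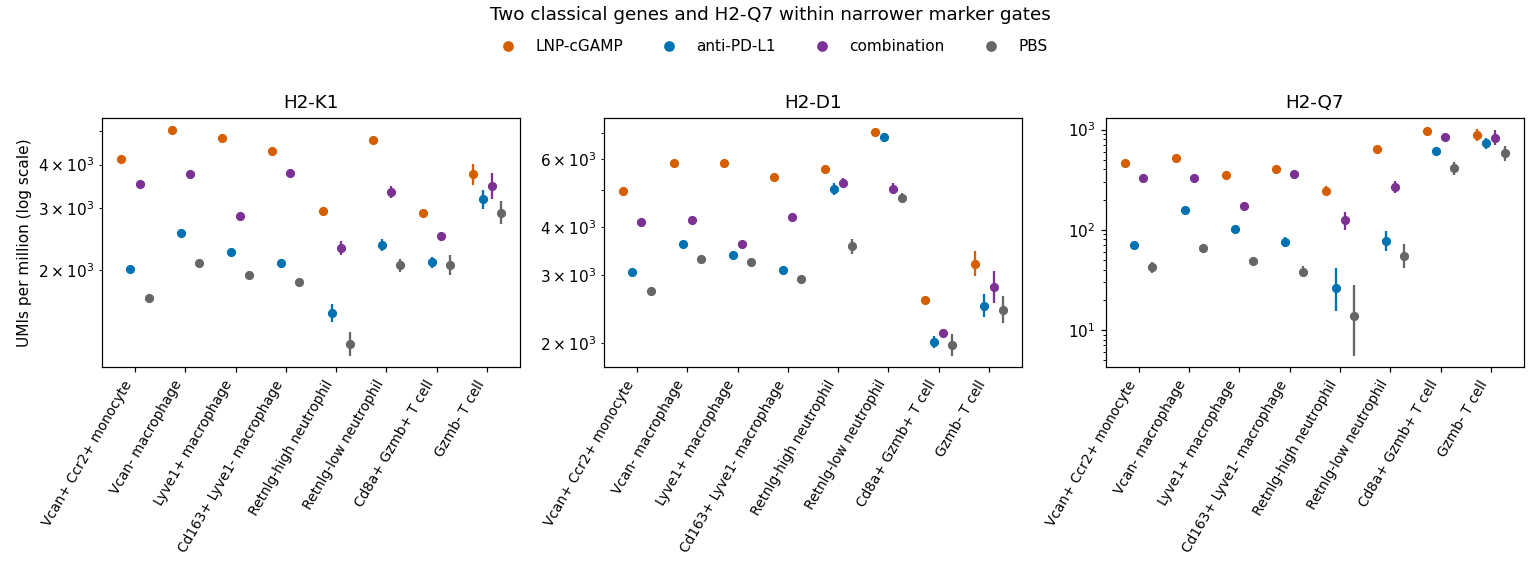
CPM (log axis) of H2-K1, H2-D1 and H2-Q7 in marker gates within monocytes and macrophages, neutrophils and T cells. Each library has 1 point, in the order LNP-cGAMP, anti-PD-L1, combination and PBS, with exact 95% Poisson intervals. For H2-K1 and H2-Q7, LNP-cGAMP has the highest point and PBS the lowest in each myeloid gate.

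Cells differed in depth between libraries, so shares of cells with at least 1 UMI were compared after thinning each cell to 1000 UMIs. H2-Q7 was then seen in 39.5% of LNP-cGAMP monocytes and macrophages (37.4 to 41.5), 9.75% of anti-PD-L1 cells (8.49 to 11.1), 30.6% of combination cells (28.8 to 32.4) and 5.89% of PBS cells (4.81 to 7.14). Without thinning the shares were 96.6%, 68.6%, 92.3% and 57.8%. H2-Q6 was seen after thinning in 17.5%, 2.18%, 11.0% and 1.32% of cells in the same order. The difference was spread over the class: the median cell held 5.01 H2-Q7 UMIs per 10000 in LNP-cGAMP, 0.587 in anti-PD-L1, 3.14 in the combination and 0.240 in PBS, and the lower quartile in LNP-cGAMP (2.63) was above the upper decile in PBS (1.78). No cell class here is known to lack class I, so no share in a negative class can be set beside these. RNA of near-empty droplets, a measure of free RNA, held heavy chains at 11683 CPM in LNP-cGAMP, 7683 CPM in anti-PD-L1, 7730 CPM in the combination and 7476 CPM in PBS. From the neutrophil transcripts S100a8 and S100a9 seen in monocytes and macrophages, free RNA was put at 5.50%, 7.48%, 6.95% and 1.99% of their UMIs. Any of these transcripts made by the cells themselves would raise that share.

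With anti-PD-L1 alone, 2 of the 10 genes were at least 1.5-fold higher than in PBS in monocytes and macrophages (1.59% of all genes tested) and 0 lower (0.826%). They were H2-Q6 (2.34-fold, 2.12 to 2.57) and H2-Q7 (1.94-fold, 1.87 to 2.02). The other 8 lay between 1.07-fold and 1.46-fold, H2-T22 being the nearest to the threshold. Both differences were seen in the female-called cells of the anti-PD-L1 pool and not in its male-called cells. Female-called monocytes and macrophages (1225 cells) had 153 CPM of H2-Q7 and 28.8 CPM of H2-Q6, and male-called cells (599 cells) had 51.2 and 8.87 CPM. The male-called cells of the PBS library (1459 cells) had 61.0 CPM of H2-Q7 and 9.55 CPM of H2-Q6, so among male-called cells anti-PD-L1 was not above PBS for either gene. LNP-cGAMP and PBS, both nearly all male, kept their difference, since male-called LNP-cGAMP cells (1980 cells) had 505 CPM of H2-Q7. Female-called cells are other mice of the pool than male-called cells, so sex and mouse cannot be told apart. In the combination library H2-Q7 was lower in female-called cells, at 298 CPM (1479 cells), than in male-called cells, at 369 CPM (458 cells). H2-K1 had 3419 and 4339 CPM in these cells and Tap1, with the opposite sign, 334 and 208 CPM.

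**Figure D4:**
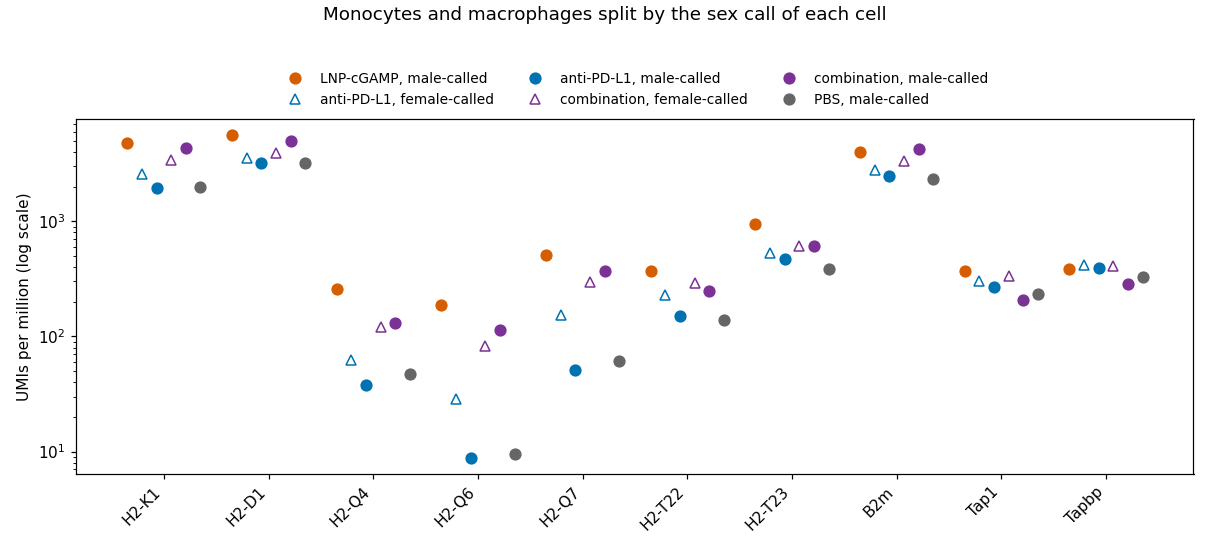
CPM (log axis) of the member genes in female-called and male-called monocytes and macrophages, by library. In anti-PD-L1 the female-called cells lie higher for H2-Q6 and H2-Q7 (153 against 51.2 CPM for H2-Q7), while in the combination they lie slightly lower; LNP-cGAMP and PBS, with 1 and 2 female-called cells of this class, show male-called cells alone.

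In the combination, 7 of the 10 genes were at least 1.5-fold higher than in PBS in monocytes and macrophages (4.28% of all genes tested) and 0 lower (1.53%). The excess was 10.3-fold for H2-Q6 (9.47 to 11.3), 5.52-fold for H2-Q7 (5.33 to 5.71), 2.75-fold for H2-Q4 and 1.89-fold for H2-K1, while H2-D1 (1.32-fold), Tap1 (1.38-fold) and Tapbp (1.20-fold) stayed below the threshold. Set against anti-PD-L1, the combination was higher for 4 (1.99% of all genes) and lower for 0 (1.19%): H2-Q6 4.42-fold, H2-Q7 2.84-fold, H2-Q4 2.43-fold and H2-K1 1.60-fold. Among male-called cells 7 genes were higher, with larger ratios of 12.7-fold for H2-Q6 (10.9 to 14.9), 7.21-fold for H2-Q7 (6.74 to 7.72), 3.45-fold for H2-Q4 and 2.25-fold for H2-K1. Set against LNP-cGAMP, it was lower for 3 (2.72%) and higher for 0 (3.46%), with ratios of 0.501 for H2-Q4, 0.518 for H2-Q6 and 0.654 for H2-Q7. Among male-called cells H2-Q7, at 0.731, was no longer past 1.5-fold, whereas H2-T23 (0.640) and Tap1 (0.566) were. The level of each of the 10 genes in the combination thus lay between those in LNP-cGAMP and PBS when all cells were used. In male-called cells this order did not hold for the partners: Tap1 had 208 CPM in the combination against 233 CPM in PBS, Tapbp had 285 against 325 CPM, and B2m had 4250 CPM in the combination against 3982 CPM in LNP-cGAMP. H2-D1 had 4952 CPM in male-called combination cells against 3183 CPM in male-called PBS cells. These comparisons share libraries, and they are not independent of each other.

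In neutrophils LNP-cGAMP was at least 1.5-fold higher than PBS for 6 of the 10 genes (6.91% of the 2766 genes tested) and lower for 0 (7.09%). H2-Q6 had 268 CPM in LNP-cGAMP, 19.8 CPM in anti-PD-L1, 94.1 CPM in the combination and 13.3 CPM in PBS, a 20.2-fold excess of LNP-cGAMP over PBS (13.9 to 30.6). H2-Q7 had 444 CPM, 51.5 CPM, 200 CPM and 42.2 CPM in the same order, a 10.5-fold excess (8.50 to 13.2). H2-K1 had 3855 CPM, 1938 CPM, 2864 CPM and 1742 CPM, a 2.21-fold excess. These 3 genes followed the order seen in monocytes and macrophages. H2-Q6, as in that class, was under 50 CPM in PBS, and in neutrophils H2-Q7 was too. H2-D1 was just short of 1.5-fold (6492 against 4330 CPM in PBS), B2m was 1.56-fold higher, and H2-T23 and Tap1 hardly differed (1.11-fold and 1.12-fold). Tapbp was lower, with 500 CPM in LNP-cGAMP, 735 CPM in anti-PD-L1, 464 CPM in the combination and 692 CPM in PBS. H2-K1 and the H2-Q genes were thus higher in LNP-cGAMP neutrophils without a like difference in Tap1, and with the opposite one in Tapbp. Free RNA, judged by C1q transcripts, made up 20.1% of neutrophil UMIs in LNP-cGAMP, 4.48% in anti-PD-L1, 13.1% in the combination and 16.7% in PBS. With it subtracted, 7 of the 10 genes were higher in LNP-cGAMP than in PBS. Near-empty droplets of PBS held 190 CPM of H2-Q7 and 53.8 CPM of H2-Q6, more than PBS neutrophils did. Free RNA can therefore make up part of these low PBS levels, and the folds given above are not corrected for it.

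LNP-cGAMP neutrophils held more Retnlg, a transcript of younger neutrophils (12198 against 4743 CPM in PBS), so they too were split. In Retnlg-high neutrophils H2-Q7 had 246 CPM in LNP-cGAMP, 26.4 CPM in anti-PD-L1, 124 CPM in the combination and 13.7 CPM in PBS, where it rests on 7 UMIs. Retnlg-low neutrophils had 633 CPM, 78.0 CPM, 269 CPM and 55.3 CPM in the same order. The difference between libraries was present in both gates, and within each library the Retnlg-low cells had the higher level. LNP-cGAMP exceeded PBS by at least 1.5-fold for 7 genes in the first gate (9.94% of all genes tested) and 6 in the second (9.28%). With anti-PD-L1, 1 gene of the 10 was higher than PBS in neutrophils as a whole, H2-T22 at 270 against 169 CPM, where 2.78% of all genes were, and 0 were lower (7.3%). In male-called neutrophils H2-T22 had 186 against 158 CPM, which is below the threshold. In the combination 4 were higher than PBS (4.95%) and 0 lower (9.26%). Among male-called neutrophils, with 12 combination cells, Tap1 (0.548), Tapbp (0.446) and H2-T23 (0.658) were past 1.5-fold lower than PBS. Over all neutrophils, the combination was higher than anti-PD-L1 for 2 (8.06%) and lower for 1, Tapbp (2.64%). Against LNP-cGAMP it was higher for 0 (1.88%) and lower for the 3 H2-Q genes (4.23%). For H2-Q7 that order was not seen in male-called neutrophils, which had 406 CPM in LNP-cGAMP (327 cells), 27.9 CPM in anti-PD-L1 (83 cells), 421 CPM in the combination (12 cells with 33 UMIs of it) and 43.1 CPM in PBS (239 cells).

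T cells differed little between libraries. LNP-cGAMP was at least 1.5-fold higher than PBS for 2 genes (7.33% of the 3276 genes tested) and lower for 0 (5.71%). H2-Q7 had 975 CPM in LNP-cGAMP, 608 CPM in anti-PD-L1, 839 CPM in the combination and 519 CPM in PBS, a 1.88-fold excess (1.70 to 2.08). H2-T22 had 336 CPM, 221 CPM, 272 CPM and 198 CPM in the same order, 1.70-fold (1.44 to 2.01). H2-Q6, 20.2-fold apart in neutrophils, had 179 CPM in LNP-cGAMP, 130 CPM in anti-PD-L1, 147 CPM in the combination and 147 CPM in PBS, and H2-K1 had 2998 CPM, 2451 CPM, 2605 CPM and 2495 CPM. The T cell level of H2-Q6 in PBS was thus not far below the monocyte and macrophage level in LNP-cGAMP (191 CPM). The PBS library held 74 T cells and the LNP-cGAMP library 228, and their makeup differed: Cd8a+ Gzmb+ cells were 168 in LNP-cGAMP and 15 in PBS. Within that gate H2-Q7 had 977 CPM in LNP-cGAMP, 610 CPM in anti-PD-L1, 836 CPM in the combination and 410 CPM in PBS. Gzmb- T cells had 883 CPM, 729 CPM, 833 CPM and 579 CPM, so both gates kept the order of libraries. In the combination H2-Q7 was the 1 gene higher than PBS (1.62-fold, or 1.33-fold with 5 male-called combination cells, where 6.72% of all genes were) and 0 were lower (7.72%). With anti-PD-L1 0 were higher (2.56%) and 0 lower (2.29%) than PBS. The combination was higher for 0 (4.18%) and lower for 0 (6.41%) against anti-PD-L1, and against LNP-cGAMP higher for 0 (0.488%) and lower for 1, H2-Q4 (1.25%). Free RNA made up 3.02% of T cell UMIs in LNP-cGAMP, 2.15% in anti-PD-L1, 3.30% in the combination and 5.29% in PBS.

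The smaller classes are described by level alone. NK cells (89, 29, 32 and 31 cells in LNP-cGAMP, anti-PD-L1, the combination and PBS) had 3390, 3677, 3206 and 3337 CPM of H2-K1 and 961, 1015, 906 and 687 CPM of H2-Q7 in that order. Their classical genes thus showed no excess in LNP-cGAMP over PBS. Dendritic cells had 5049 CPM of H2-K1 in LNP-cGAMP (14 cells), 2259 CPM in anti-PD-L1 (43 cells), 2356 CPM in the combination (18 cells) and 2434 CPM in PBS (52 cells), and H2-Q6 had 585, 128, 120 and 127 CPM. For H2-K1 and H2-Q6 in this class LNP-cGAMP alone stood apart, and the combination was near the level of PBS. This did not hold for each gene: B2m had 2858, 1844, 2298 and 1879 CPM in the same order, and Tap1 580, 599, 584 and 510 CPM. B cells had 5176 CPM of H2-K1 in LNP-cGAMP (12 cells), 3853 CPM in anti-PD-L1 (30 cells), 3957 CPM in the combination (20 cells) and 2302 CPM in PBS (14 cells).

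The Lewis lung carcinoma cells had the lowest summed heavy-chain level in each library, but not the lowest level of each single gene. In the combination, for example, H2-D1 had 3110 CPM in LLC cells against 2175 CPM in T cells. LLC cells were taken as cells with at least 2 UMIs of Cald1 and 1 of Hmga2. They numbered 4 in LNP-cGAMP, 29 in anti-PD-L1, 23 in the combination and 31 in PBS. Of their keratins, Krt18 was present in each library (219 to 401 CPM), whereas Krt8 had 7.46 CPM (1 UMI) in LNP-cGAMP, 363 CPM in anti-PD-L1, 493 CPM in the combination and 234 CPM in PBS. The fibroblast gene Dcn had 776, 280, 954 and 547 CPM in the gated cells, in the same order. Each of the 87 cells held at least 1 heavy-chain UMI and 1 B2m UMI at a median of 3700 to 85453 UMIs per cell. Summed heavy chains were 3266 CPM in LNP-cGAMP, 3869 CPM in anti-PD-L1, 6016 CPM in the combination and 2039 CPM in PBS. Not all gated cells lay in 1 cluster, however. Of them 12 lay outside cluster 18, the cluster led by Cald1 and Hmga2: 8 in the combination, 2 in anti-PD-L1 and 2 in PBS. In the combination 5 of the 8 lay in cluster 21, led by the fibroblast and mesothelial genes Mgp, Sparc and Msln, and 3 in cluster 15, led by Alox15, with 15808 to 18994 CPM of C1q transcripts. These 12 cells had 5758 to 17130 CPM of heavy chains each.

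Within cluster 18 the gated cells had 3266 CPM of heavy chains in LNP-cGAMP (4 cells), 3352 CPM in anti-PD-L1 (27 cells), 3817 CPM in the combination (15 cells) and 1833 CPM in PBS (29 cells). The treated libraries thus lay close together and above PBS. H2-D1, the leading heavy chain of these cells, had 2207 CPM in LNP-cGAMP, 2270 CPM in anti-PD-L1, 2679 CPM in the combination and 1339 CPM in PBS, and H2-K1 had 634 CPM, 702 CPM, 806 CPM and 341 CPM. B2m had 1335 CPM, 1389 CPM, 1813 CPM and 735 CPM, and Tap1 201 CPM, 91.8 CPM, 86.0 CPM and 37.3 CPM, in the same order. H2-Q7 was low in these cells, with 14.9 CPM (2 UMIs) in LNP-cGAMP, 43.1 CPM in anti-PD-L1, 22.02 CPM in the combination and 2.98 CPM in PBS, where monocytes and macrophages had 60.7 CPM. Most of the anti-PD-L1 value came from 1 cell, which held 68 of the H2-Q7 UMIs and 18842 CPM of heavy chains. Without the cell highest in heavy chains in each library, H2-Q7 was 15.6 CPM in LNP-cGAMP, 4.71 CPM in anti-PD-L1, 18.1 CPM in the combination and 2.98 CPM in PBS. The summed heavy chains were then 3116 CPM, 2733 CPM, 3543 CPM and 1832 CPM, in the same order, so each treated library kept a value above PBS. In LNP-cGAMP, however, 1 cell held 125397 of the 134102 UMIs of the gated cells. The cell left out there was another one, of 6060 UMIs. All LNP-cGAMP values of LLC cells thus rest mainly on that 1 deep cell, which had 3070 CPM of heavy chains. Free RNA, judged by C1q transcripts that include those of gated cells rich in C1q, corresponded to 3.08%, 17.6%, 24.3% and 5.16% of UMIs in the gated cells.

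**Figure D5:**
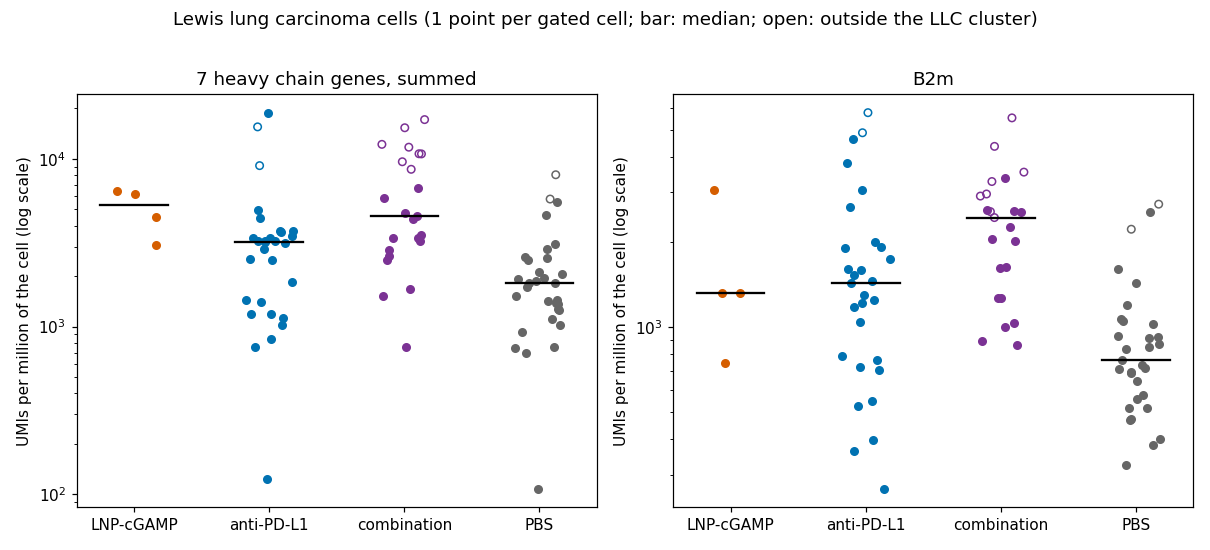
Heavy-chain CPM (sum of the 7 genes) and B2m CPM of each gated LLC cell, by library in the order LNP-cGAMP, anti-PD-L1, combination and PBS. Open points are the 12 cells outside the cluster led by Cald1 and Hmga2. For heavy chains, the open points lie above the filled ones in the combination and PBS, and 1 filled anti-PD-L1 cell stands at 18842 CPM.

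Other genes of the pathway were counted from lists. Of 12 regulators of class I genes, 9 were high enough to compare in monocytes and macrophages, and LNP-cGAMP was at least 1.5-fold higher than PBS for 6 of them (11.5% of all genes tested) and lower for 0 (8.23%). Irf7, an interferon-induced transcription factor, had 1123 CPM in LNP-cGAMP against 242 CPM in PBS, Stat2, a transducer of the type I interferon signal, 77.3 against 34.8 CPM, and Irf9, its DNA-binding partner, 96.8 against 45.9 CPM. Irf1, another transcription factor of the interferon response, had 337 against 192 CPM. Nlrc5, the class I transactivator, was below the threshold at 55.7 against 39.8 CPM. The combination was higher than PBS for 1 regulator, Irf7 (619 against 242 CPM), where 4.28% of all genes were. In the loading and chaperone list 1 of 5 genes was higher and 2 were lower in LNP-cGAMP, against the same shares of 11.5% and 8.23%: Tap2, the second transporter subunit, was higher (186 against 105 CPM), while the chaperones calreticulin (Calr, 547 against 1268 CPM) and calnexin (Canx, 145 against 259 CPM) were lower. Of 5 immunoproteasome genes, 1 was higher in LNP-cGAMP than in PBS and 0 lower, against the same shares of 11.5% and 8.23%. It was Psmb9, a catalytic subunit (450 against 288 CPM). H2-M3, which presents formylated peptides, was the 1 other heavy chain high enough to compare (131 against 79.6 CPM). Of 2 receptors of class I high enough to compare, 1 was higher and 0 lower, beside the same shares. This was Pirb, an inhibitory receptor (971 against 488 CPM).

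The lists were also counted in neutrophils and T cells. In neutrophils 1 of 9 regulators was higher in LNP-cGAMP than in PBS (6.91% of all genes), again Irf7 (1384 against 483 CPM), and calreticulin (152 against 241 CPM) and calnexin (48.9 against 81.5 CPM) were lower (7.09%). In T cells 0 of 7 regulators was higher, and 3 of 6 loading genes were (7.33% of all genes): Canx had 216 CPM in LNP-cGAMP against 119 CPM in PBS, Pdia3, a thiol reductase of the loading complex, 525 against 326 CPM, and Calr 773 against 492 CPM. The chaperones thus differed from PBS with opposite signs in myeloid cells and T cells, a contrast that was not tested. Of 8 receptors of class I compared in T cells, 1 was higher (7.33% of all genes) and 0 lower (5.71%). It was Cd8b1, the beta chain of the CD8 coreceptor, with 1026 against 657 CPM, beside the larger number of Cd8a+ Gzmb+ cells in LNP-cGAMP.

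Across the 12 sums of 3 classes (monocytes and macrophages, neutrophils, T cells) by 4 libraries, the members split into groups. The Pearson correlation of log2(CPM + 10) was 0.97 between H2-D1 and H2-T23 and 0.93 between H2-Q6 and H2-Q7, but 0.29 between H2-D1 and H2-K1 and -0.43 between H2-D1 and H2-Q7. H2-K1 was closer to H2-T22 (0.80) and H2-Q6 (0.79). Classical and Qa or Tla genes were thus mixed in this grouping. Among 4616 genes, those nearest to H2-D1 were Irf7 (0.99), Oasl1 (0.98) and Tmem140 (0.97), with Cebpg and Sp140, and those nearest to H2-T23 were Ifih1 (0.97), Noct, Lst1, Irf7 and Tmem140. H2-Q7 was nearest to Ccl5 (0.97), Surf1 (0.94) and AW112010 (0.92), with Havcr2 and Rgs1, and H2-Q6 to Gm4955 (0.93) and Ccl5 (0.89), with Itgb1bp1, Bin2 and Nosip. H2-K1 was nearest to Pydc4 (0.89), Pyhin1 (0.85) and Gm4955 (0.84), with Nfkbib and Vta1. The 12 sums share libraries and cell classes, and the correlations describe them without a test.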

How the data were processed

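The authors processed the single-cell 3′ RNA libraries with Cell Ranger, version 3.0.2 in the file headers, against mm10, per the submitters' processing notes, and the deposited matrices hold UMI counts per gene and barcode, unfiltered. The labels name kit v2 in one place and V3 in another. Barcodes were kept at or above the density minimum of UMIs per barcode, searched between 300 and 5000 UMIs (927 for LNP-cGAMP, 940 for anti-PD-L1, 1114 for the combination, 927 for PBS), with at least 200 genes and at most 10% mitochondrial UMIs. Marker gates that hold no member gene set 7 classes. Cells in more than 1 gate (30, 27, 34 and 16 in the same order) were left out, except that the LLC gate took precedence, and 106, 129, 69 and 81 cells fell in no gate. No doublet caller was run. Counts were summed per class and library and scaled to CPM. A gene was called higher or lower at 1.5-fold in (CPM + 10), among genes that reached 50 CPM in 1 library and summed to 20 UMIs or more over the 4. There is 1 library per treatment, so no p-value was computed. Fold intervals are conditional binomial, levels exact Poisson and shares Clopper-Pearson, at 95%, and they cover counting error only. Named genes are the 10 members, lists of the pathway (up to 5 with the largest ratio) and the 5 nearest genes of 5 members. The members and lists were chosen with earlier results of these data known. Simulated data, made for LNP-cGAMP against PBS with 100 genes doubled and 100 halved, gave 100% and 100% called among 3270 genes of monocytes and macrophages, 100% and 98% among 2766 of neutrophils and 96% and 91% among 3276 of T cells. The simulated counts held counting noise alone, so these rates do not cover differences between mice or in cell makeup. Alternatives (pseudocount, filters, normalization, gates, background subtraction, male-called cells, merged H2-Q6 and H2-Q7) are given in the closing section. Software was Python 3.11.15, numpy 2.4.6, scipy 1.17.1, pandas 2.3.3, scanpy 1.11.5, leidenalg 0.10.2, R 4.3.3 and edgeR 4.0.16 (TMM factors only).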

Additional observations from a re-analysis of the deposited data

Results flagged for a closer look

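Some genes had ratios on opposite sides of 1 in different cell classes under the same treatment. These differences between classes were not tested. For LNP-cGAMP against PBS, Tapbp was 1.21-fold in monocytes and macrophages (392 against 325 CPM) and 1.20-fold in T cells (236 against 196 CPM), but 0.723-fold in neutrophils (500 against 692 CPM). For the combination against PBS, Tapbp was 1.20-fold in monocytes and macrophages (390 against 325 CPM) and 0.671-fold in neutrophils (464 against 692 CPM). The first of these lay on the other side of 1 among male-called cells (285 against 325 CPM). H2-Q4 was 2.75-fold in monocytes and macrophages (131 against 47.7 CPM) and 1.38-fold in neutrophils (178 against 129 CPM), but 0.693-fold in T cells (85.6 against 124 CPM) in the combination against PBS. In T cells H2-Q4 rests on 156 combination cells and 74 PBS cells.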

How the results depend on the processing

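Across all alternatives, 215 counts of members higher stayed within 1.5 times of the reported count and 20 did not, and the order of Qa and Tla against classical genes kept its count in 125 cases and not in 7. Of the members' log2 ratios, 1480 stayed within their counting interval and 717 did not. Among ratios past 1.5-fold 3 changed sign, all in male-called cells: anti-PD-L1 against PBS in monocytes and macrophages became -0.0508 for H2-Q6 and -0.21 for H2-Q7, and the combination against LNP-cGAMP in neutrophils, with 12 male-called combination cells, became 0.0535 for H2-Q7. The other male-called counts of members higher that differed were, for anti-PD-L1 against PBS, 0 genes in monocytes and macrophages and 0 in neutrophils. For the combination against anti-PD-L1 they were 7 in monocytes and macrophages, 4 in neutrophils and 1 in T cells, and for the combination against PBS in T cells 2 genes higher and 4 Qa or Tla genes above both classical ones (2 in neutrophils for LNP-cGAMP against PBS). The cause was not tested, and sex and mouse cannot be told apart. A pseudocount of 50 CPM gave 3, 2 and 2 Qa or Tla genes above both classical genes (LNP-cGAMP and combination against PBS in monocytes and macrophages, LNP-cGAMP against PBS in neutrophils), and 1 and 0 genes higher in anti-PD-L1 than in PBS in monocytes and macrophages and in neutrophils; a larger pseudocount shrinks low genes by construction. Vcan+ Ccr2+ monocytes gave 3 such Qa or Tla genes for LNP-cGAMP and 1 gene higher for anti-PD-L1. Counting H2-Q6 and H2-Q7 as 1 gene gave 1 (anti-PD-L1 against PBS, monocytes and macrophages), 1 (combination against anti-PD-L1, neutrophils) and 0 (combination against PBS, T cells). In neutrophils, anti-PD-L1 against PBS gave 2 genes with TMM scaling, 2 with median-of-ratios scaling and 3 with background RNA subtracted. In T cells, LNP-cGAMP against PBS gave 1 gene with cells weighted equally and 1 without cycling cells, and the combination gave 0 and 0; a mitochondrial limit of 20% gave 2 Qa or Tla genes above both classical ones, and putting back cells in 2 gates gave 1 gene for the combination against anti-PD-L1.

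Summed heavy chains in LLC cells, in the order anti-PD-L1, combination and PBS, were 3459, 4818 and 1833 CPM with the stricter gate, 3492, 5464 and 1964 CPM without cells rich in C1q RNA and 3010, 5360 and 1740 CPM with background RNA subtracted. Chosen after seeing the data, gated cells of the cluster led by Cald1 and Hmga2 gave 3352, 3817 and 1833 CPM, the whole cluster 3363, 3818 and 1842 CPM, and gated cells of the cluster without the highest cell 2733, 3543 and 1832 CPM. The values within the cluster leave out the 12 gated cells outside it, which had 5758 to 17130 CPM of heavy chains each. What those cells are was not tested. Without a CPM minimum, 604 of 13224 genes (4.57%) in place of 377 of 3270 were higher in LNP-cGAMP than in PBS in monocytes and macrophages, 358 of 9039 in place of 191 in neutrophils and 514 of 10424 in place of 240 in T cells. No paired analysis was possible because each treatment has 1 library. Depth limits neutrophils most (medians of 2106 to 2558 UMIs per cell), and the 4 LNP-cGAMP LLC cells.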
